A study of Mus musculus with 18 samples.

Results

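The Kruppel-like factor family was followed through 10 named members, *Klf2*, *Klf3*, *Klf4*, *Klf5*, *Klf6*, *Klf7*, *Klf9*, *Klf10*, *Klf13* and *Klf16*, among the 35773 genes counted in RNA-seq of mouse pluripotent stem cells. The members were taken by name, with earlier results of these data known, and all 10 passed the filter of at least 10 counts in at least 3 samples that 16901 genes passed. Kruppel-like factors are zinc finger proteins that bind CACCC and GC-rich boxes in promoters and enhancers. *Klf2*, *Klf4* and *Klf5* belong to the transcription factor network of naive pluripotency, where LIF signaling through Stat3 is known to maintain *Klf4* and inhibition of Mek is known to favor *Klf2*. The family divides by cofactor into a group made up largely of activators (*Klf2*, *Klf4*, *Klf5*, *Klf6*, *Klf7*), a repressor that recruits CtBP (*Klf3*) and a group that recruits the Sin3A corepressor (*Klf9*, *Klf10*, *Klf13*, *Klf16*).

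The samples were 3 replicates in each of 6 groups, all labelled wild type and strain 129S2/SvPasCrl, and the groups differed in origin and medium. ESCs were naive embryonic stem cells in 2i/LIF, a medium with inhibitors of Mek and Gsk3 plus LIF. ASCs were the advanced pluripotent stem cells derived from AFSCs and grown in ABCL, which holds activin A, BMP4, the Gsk3 inhibitor CHIR99021 and LIF. ESC-ASCs were ESCs cultured in ABCL, which the paper describes as converted to ASCs. EpiLCs were epiblast-like cells made from ESCs, AFSCs were primed cells kept in activin A and FGF2, and EpiSCs were epiblast stem cells. By the study's methods the blastocysts came from inbred females and transgenic males of mixed background, which the strain label does not show. The samples were called biological replicates, but how many lines or cultures they represent is not given in the sources used here, so p-values measure only the spread between these samples, which may be technical.

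Total counts per sample were 4961934 to 9906473 in 5 groups and 17813619 to 18071600 in ESC-ASCs, so depth and any batch behind it cannot be told apart from the ESC-ASC group. The 5 naive ESC marker genes summed to 5730 to 6653 normalized read counts per kb in ESCs and 2.17 to 4.02 in EpiSCs, with 3041 to 3775 in ASCs, where *Dppa3* was lower than in ESCs (-3.29 ± 0.28, adjusted p = 2.92e-08, edgeR). The 5 primed epiblast markers summed to 248 to 280 in ESCs and 3110 to 3412 in EpiSCs. The replicate 1 libraries stood apart in ESCs, ASCs, EpiLCs and AFSCs, and the replicate 2 library in EpiSCs, where replicates 1 and 3 were alike (chi-square per degree of freedom 1.96, compared with 11.3 and 10.1 against replicate 2). Reads of the mitochondrial chromosome made up 14.4% of counts in AFSC replicate 1 and 8.08% in ESC replicate 1, compared with 1.43% to 4.59% in the 16 other libraries. The alignments behind the ESC-ASC counts bear another name than the group, so for this group the label alone gives the identity. Because these are bulk samples, fewer cells of a type and less RNA per cell cannot be told apart.

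The promoters of *Klf2* and *Klf4*, the members with the widest range across groups, and of *Klf9* and *Klf13*, which ranked the groups differently, are shown as the 250 bases before the RefSeq start site (GRCm38.p6), 5′ to 3′ on the strand of the gene. Capitals mark the Kruppel-like factor box CACCC or its complement GGGTG, and the GC box GGGCGG or its complement CCGCCC.
*Klf2* (chr8:72318812-72319061, plus strand): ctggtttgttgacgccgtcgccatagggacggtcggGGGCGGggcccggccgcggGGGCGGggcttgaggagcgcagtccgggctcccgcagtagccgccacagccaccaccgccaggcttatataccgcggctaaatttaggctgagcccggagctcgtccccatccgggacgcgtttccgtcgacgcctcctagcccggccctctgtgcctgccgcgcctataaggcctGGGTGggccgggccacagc
*Klf4* (chr4:55532476-55532725, minus strand): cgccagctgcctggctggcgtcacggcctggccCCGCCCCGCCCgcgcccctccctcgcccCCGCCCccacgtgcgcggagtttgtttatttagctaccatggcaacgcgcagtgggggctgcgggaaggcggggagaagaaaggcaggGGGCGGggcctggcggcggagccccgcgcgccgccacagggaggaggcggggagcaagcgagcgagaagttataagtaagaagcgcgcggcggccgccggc
*Klf9* (chr19:23140976-23141225, plus strand): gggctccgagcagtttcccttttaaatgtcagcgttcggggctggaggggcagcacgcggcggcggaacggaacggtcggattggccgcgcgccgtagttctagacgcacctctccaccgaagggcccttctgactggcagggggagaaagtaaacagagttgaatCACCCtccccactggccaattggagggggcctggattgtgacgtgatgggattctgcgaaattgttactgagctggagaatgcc
*Klf13* (chr7:63938916-63939165, minus strand): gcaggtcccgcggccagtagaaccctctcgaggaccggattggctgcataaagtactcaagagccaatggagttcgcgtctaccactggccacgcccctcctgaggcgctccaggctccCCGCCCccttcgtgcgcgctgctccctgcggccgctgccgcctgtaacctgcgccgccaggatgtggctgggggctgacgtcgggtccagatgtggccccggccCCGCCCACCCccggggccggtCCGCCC
Entries were found for 7 of the 10 members (*Klf2*, *Klf3*, *Klf4*, *Klf6*, *Klf7*, *Klf9*, *Klf13*), and all 7 had a GC content above the median of 52.4% over the 32851 RefSeq promoters searched in the same way. GGGCGG, searched on both strands with overlapping matches counted, was found in 6 of the 7 and in 32.7% of all promoters. It occurred 4 times before *Klf4*, 2 times before *Klf2*, 3 times before *Klf13* and 0 times before *Klf9*. CACCC was found in 5 of the 7 and in 52.0% of all promoters, with 0 matches before *Klf4*. CCAAT was found before *Klf6*, *Klf9* and *Klf13*, compared with 33.8% of all promoters, and TATAAA before none of the 7, compared with 12.4%. The Stat-type spacing TTCNNNGAA was found before *Klf9* alone, compared with 7.02% of all promoters. These are matches of letters in these windows only.

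Levels are given as normalized read counts per kb of exon, which are raw fragment counts divided by the size factor of the sample and by the exonic length of the gene model. Differences are log2 fold changes from edgeR's quasi-likelihood test, fitted on all 16901 genes and 18 samples, with Benjamini-Hochberg adjustment over the genes tested. Their standard error (SE) is not an output of that test. It was derived as the absolute log2 fold change divided by the square root of the F statistic. A difference was called at an adjusted p below 0.05. Values given without the replicate 1 libraries rest on replicates 2 and 3 alone, a subset chosen after seeing the data. In EpiSCs and ESC-ASCs replicate 1 was not the library that stood apart.

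**Figure D1:**
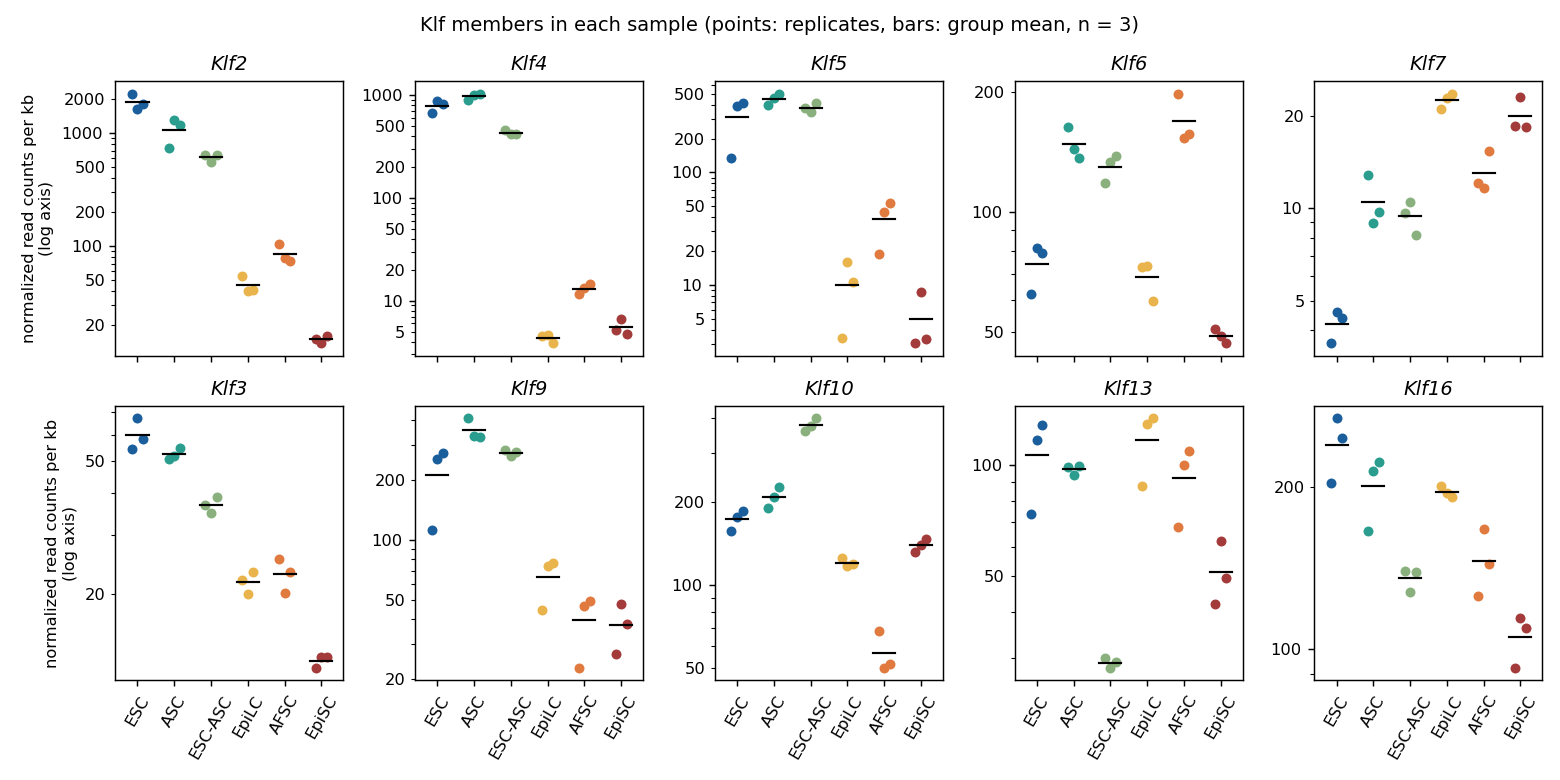
Levels of the 10 members in every sample, as normalized read counts per kb on a log axis whose range differs between panels (points are replicates, bars are group means, n = 3). *Klf2*, *Klf4* and *Klf5* were at 134 or above in every ESC, ASC and ESC-ASC sample and at 104 or below in every EpiLC, AFSC and EpiSC sample, and *Klf7* was lowest in ESCs.

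*Klf2* (ENSMUSG00000055148, chromosome 8, 72319033 to 72321656, plus strand), an activator of the naive network, was the most abundant member in ESCs. Its 3 ESC samples held 2249, 1654 and 1808 normalized read counts per kb, the ASC samples 733, 1304 and 1184, and the ESC-ASC samples 640, 560 and 636. In EpiLCs the values were 54.4, 39.8 and 41.1, in AFSCs 104, 77.7 and 74.6, and in EpiSCs 14.9, 13.8 and 16.0. No 2 groups overlapped, and all 15 pairs of groups differed by edgeR's test (39.4% to 72.2% of all genes were called in these pairs), which gave the order ESC, ASC, ESC-ASC, AFSC, EpiLC, EpiSC. *Klf2* was thus lower in ASCs than in ESCs (log2 fold change -0.84 ± 0.18 SE, adjusted p = 0.000685, edgeR), a smaller step than that from ESCs to EpiSCs (-7.00 ± 0.25, adjusted p = 2.38e-14). ASC replicate 1 was at 0.589 of the mean of the other ASC samples, and without the replicate 1 libraries the ASC difference was -0.47 (adjusted p = 0.000553, edgeR).

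*Klf4* (ENSMUSG00000003032, chromosome 4, 55527143 to 55532466, minus strand), one of the factors used to reprogram somatic cells, had its highest level in ASCs and the widest range of all members, 227-fold between the highest and the lowest group mean. Per sample it measured 666, 873 and 821 in ESCs, 902, 1017 and 1041 in ASCs, and 458, 418 and 420 in ESC-ASCs. The primed groups were near the bottom of the scale, with 11.5, 13.3 and 14.6 in AFSCs, 5.16, 6.65 and 4.70 in EpiSCs and 4.55, 4.64 and 3.86 in EpiLCs, from raw counts of 11 to 43 per sample. All ASC samples were above all ESC samples, although the closest were 902 and 873. The difference was small (0.30 ± 0.12, adjusted p = 0.0497, edgeR) and was lost when any 1 of 12 of the 18 libraries was left out (adjusted p 0.0520 to 0.216): ASC 2 or 3, AFSC 2 or 3, EpiLC 2 or 3, EpiSC 1 or 3, ESC 1 or 3, or ESC-ASC 1 or 3. Levels in ESC-ASCs were lower than in ASCs (-1.18 ± 0.13, adjusted p = 3.95e-07, edgeR) and than in ESCs (-0.88 ± 0.13, adjusted p = 6.76e-06). EpiSCs and EpiLCs, which came last, did not overlap but did not pass the test (0.33 ± 0.24, adjusted p = 0.372, edgeR).

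*Klf5* (ENSMUSG00000005148, chromosome 14, 99298691 to 99313405, plus strand), an activator needed in the early embryo and in ESC self-renewal, showed no called difference between any of ESCs, ASCs and ESC-ASCs. The samples gave 134, 387 and 417 in ESCs, 396, 459 and 502 in ASCs, and 374, 346 and 410 in ESC-ASCs. They gave 18.8, 44.4 and 53.6 in AFSCs, 3.36, 15.9 and 10.6 in EpiLCs, and 3.05, 8.71 and 3.33 in EpiSCs. The replicate 1 sample was the lowest in 5 of 6 groups, and the coefficient of variation was 49.7% in ESCs and 63.4% in EpiLCs and EpiSCs. In EpiSCs replicates 1 and 3 were close to each other, and replicate 2 was above both. ASCs differed from ESCs by 0.49 ± 0.35 (adjusted p = 0.252, edgeR), and ESC-ASCs from ESCs by 0.23 ± 0.34 (adjusted p = 0.578), a direction that turned to -0.09 without the replicate 1 libraries (adjusted p = 0.586). Without them *Klf5* was called lower in ESC-ASCs than in ASCs (-0.35, adjusted p = 0.0287, edgeR) and in EpiSCs than in EpiLCs (-1.11, adjusted p = 0.0165, compared with 0.263 with all samples). The fall to EpiSCs was large (-5.90 ± 0.52, adjusted p = 1.60e-08, edgeR) and came to -6.61 without EpiSC replicate 2, which held the most *Klf5* of its group. AFSCs held more *Klf5* than EpiSCs (2.90 ± 0.58, adjusted p = 0.000615, edgeR), or 3.61 without EpiSC replicate 2. The gene model used in counting ended 1631 bases before the 3′ end in the GENCODE M21 annotation, and reads beyond it were not counted.

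*Klf6* (ENSMUSG00000000078, chromosome 13, 5861489 to 5870393, plus strand), a widely expressed activator, did not divide the naive from the primed groups. It measured 198, 153 and 157 in AFSCs, 163, 144 and 137 in ASCs and 118, 133 and 138 in ESC-ASCs, followed by 62.1, 81.4 and 78.8 in ESCs, 72.9, 73.0 and 59.9 in EpiLCs and 50.7, 48.7 and 46.9 in EpiSCs. AFSCs, ASCs and ESC-ASCs overlapped in neighboring pairs and lay above every ESC, EpiLC and EpiSC sample. *Klf6* was higher in ASCs than in ESCs (0.97 ± 0.14, adjusted p = 1.76e-05, edgeR) and in AFSCs than in EpiSCs (1.81 ± 0.14, adjusted p = 9.20e-09), whereas ESCs and EpiLCs did not differ beyond their spread (adjusted p = 0.518). Without the replicate 1 libraries *Klf6* was called lower in EpiLCs than in ESCs (-0.28, adjusted p = 0.0455, edgeR).

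*Klf7* (ENSMUSG00000025959, chromosome 1, 64029447 to 64122282, minus strand), an activator best known from neurons, ran opposite to *Klf2*, *Klf4* and *Klf5*. It was lowest in ESCs, at 3.63, 4.58 and 4.39, and reached 12.9, 8.94 and 9.71 in ASCs and 9.64, 10.5 and 8.16 in ESC-ASCs. AFSCs held 12.1, 11.7 and 15.4, EpiSCs 18.6, 23.1 and 18.4, and EpiLCs 21.0, 23.0 and 23.7. All samples of the other 5 groups were above all ESC samples. *Klf7* was the only member called higher than in ESCs in all 5 groups, by 1.28 ± 0.21 in ASCs (adjusted p = 6.00e-05, edgeR) and 2.41 ± 0.20 in EpiLCs (adjusted p = 6.21e-09). ASCs did not differ from AFSCs beyond their spread (-0.34 ± 0.18, adjusted p = 0.110, edgeR), but the difference was called without ASC replicate 1 (adjusted p = 0.0264). Antisense genes Gm13748 and Gm26649 overlap *Klf7*, and counting ignored strand, so their reads cannot be told apart from those of *Klf7*.

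*Klf3* (ENSMUSG00000029178, chromosome 5, 64803388 to 64832901, plus strand), the CtBP-recruiting repressor, ranked the groups in the same order as *Klf2*, over a narrower range. It measured 54.5, 67.1 and 58.3 in ESCs, 50.7, 51.9 and 54.8 in ASCs and 37.0, 34.8 and 38.9 in ESC-ASCs. Values were 25.5, 20.2 and 23.2 in AFSCs, 22.0, 20.1 and 23.3 in EpiLCs and 12.02, 12.9 and 13.0 in EpiSCs. ASCs overlapped ESCs (adjusted p = 0.134, edgeR) and EpiLCs overlapped AFSCs (adjusted p = 0.654), and the other 3 neighboring pairs differed. From ESCs to EpiSCs *Klf3* fell by 2.25 on the log2 scale (SE 0.13, adjusted p = 1.39e-11, edgeR).

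*Klf9* (ENSMUSG00000033863, chromosome 19, 23141226 to 23166911, plus strand), a Sin3A-recruiting factor induced by glucocorticoid and thyroid hormones, was high wherever *Klf2* and *Klf4* were high. It measured 409, 335 and 330 in ASCs, 284, 264 and 276 in ESC-ASCs and 112, 255 and 272 in ESCs. EpiLCs held 44.3, 74.0 and 76.7, AFSCs 22.7, 46.5 and 49.2, and EpiSCs 26.5, 47.5 and 37.7. All ASC samples lay above all ESC samples, and ESC replicate 1 was at 0.424 of the mean of the other 2 ESC samples. The difference of 0.71 ± 0.29 (adjusted p = 0.0494, edgeR) was lost when any 1 of 10 of the 18 libraries was left out (adjusted p 0.0514 to 0.196): ASC 1, 2 or 3, AFSC 2, EpiLC 2 or 3, EpiSC 3, ESC 1, or ESC-ASC 1 or 3. Without the replicate 1 libraries it was 0.34 (adjusted p = 0.0103, edgeR), and *Klf9* was called lower in ESC-ASCs than in ASCs (-0.31, adjusted p = 0.0169, compared with 0.288 with all samples). AFSCs held much less *Klf9* than ASCs (3.14 ± 0.32 in favor of ASCs, adjusted p = 1.45e-07, edgeR) and did not differ from EpiSCs beyond their spread (adjusted p = 0.868). The counted gene model ended 1223 bases before the GENCODE M21 end.

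*Klf10* (ENSMUSG00000037465, chromosome 15, 38294413 to 38300707, minus strand), an early response gene of TGF-beta signaling, was highest in ESC-ASCs and lowest in AFSCs. ESC-ASC samples gave 361, 375 and 399, ASC samples 189, 208 and 226, and ESC samples 156, 177 and 184. The values were 132, 139 and 147 in EpiSCs, 125, 117 and 119 in EpiLCs and 68.1, 50.2 and 52.1 in AFSCs. No neighboring groups overlapped, but EpiSCs and EpiLCs did not pass the test (adjusted p = 0.206, edgeR). Without the replicate 1 libraries EpiSCs were called higher (0.29, adjusted p = 0.0237, edgeR). ESC-ASCs were above ASCs by 0.87 ± 0.12 (adjusted p = 1.08e-05, edgeR), and AFSCs were below EpiSCs (-1.28 ± 0.13, adjusted p = 2.50e-07). ASCs and ESCs did not pass the test (0.24 ± 0.12, adjusted p = 0.111, edgeR) but did without the replicate 1 libraries (0.27, adjusted p = 0.0305). EpiSCs and ESCs differed little (-0.32 ± 0.12, adjusted p = 0.0324, edgeR), and this call was lost without EpiSC replicate 1 or 2 or ESC replicate 2 or 3 (adjusted p 0.0697 to 0.120). The counted gene model ended 2950 bases before the GENCODE M21 end, more than for any other member.

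*Klf13* (ENSMUSG00000052040, chromosome 7, 63886351 to 63938915, minus strand), a Sin3A-recruiting factor known from the heart and lymphocytes, stood out by its low level in ESC-ASCs. These samples held 30.0, 28.2 and 29.2, all below the lowest sample of any other group. The ASC samples, in the same medium, held 98.6, 93.9 and 99.6, and the ESC samples 73.5, 117 and 128. EpiLCs gave 87.9, 129 and 134, AFSCs 67.8, 100 and 109, and EpiSCs 42.0, 62.4 and 49.4. ESC-ASCs were lower than ASCs (-1.73 ± 0.22, adjusted p = 3.17e-06, edgeR) and than ESCs (-1.89 ± 0.22, adjusted p = 5.63e-07). ESCs, EpiLCs, ASCs and AFSCs overlapped, with adjusted p of 0.561 to 0.854 between neighbors in their order by edgeR's test. Without the replicate 1 libraries ASCs were lower than ESCs (-0.33, adjusted p = 0.0190, edgeR).

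*Klf16* (ENSMUSG00000035397, chromosome 10, 80567124 to 80577321, minus strand), a small Sin3A-recruiting factor first described in the brain, varied least, 2.28-fold between the highest and the lowest group mean. It measured 203, 269 and 247 in ESCs, 166, 214 and 222 in ASCs and 201, 195 and 192 in EpiLCs. AFSCs held 125, 167 and 144, ESC-ASCs 140, 128 and 139, and EpiSCs 92.3, 114 and 109. Only EpiSC samples lay below all samples of every other group. *Klf16* was lower in EpiSCs than in ESCs (-1.198 ± 0.15, adjusted p = 8.40e-07, edgeR) and than in EpiLCs (-0.91 ± 0.15, adjusted p = 4.21e-05). ASCs and EpiLCs did not pass against ESCs (adjusted p = 0.109 and 0.0944, edgeR), but both were called lower without ESC replicate 1 (adjusted p = 0.0338 and 0.0252).

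**Figure D2:**
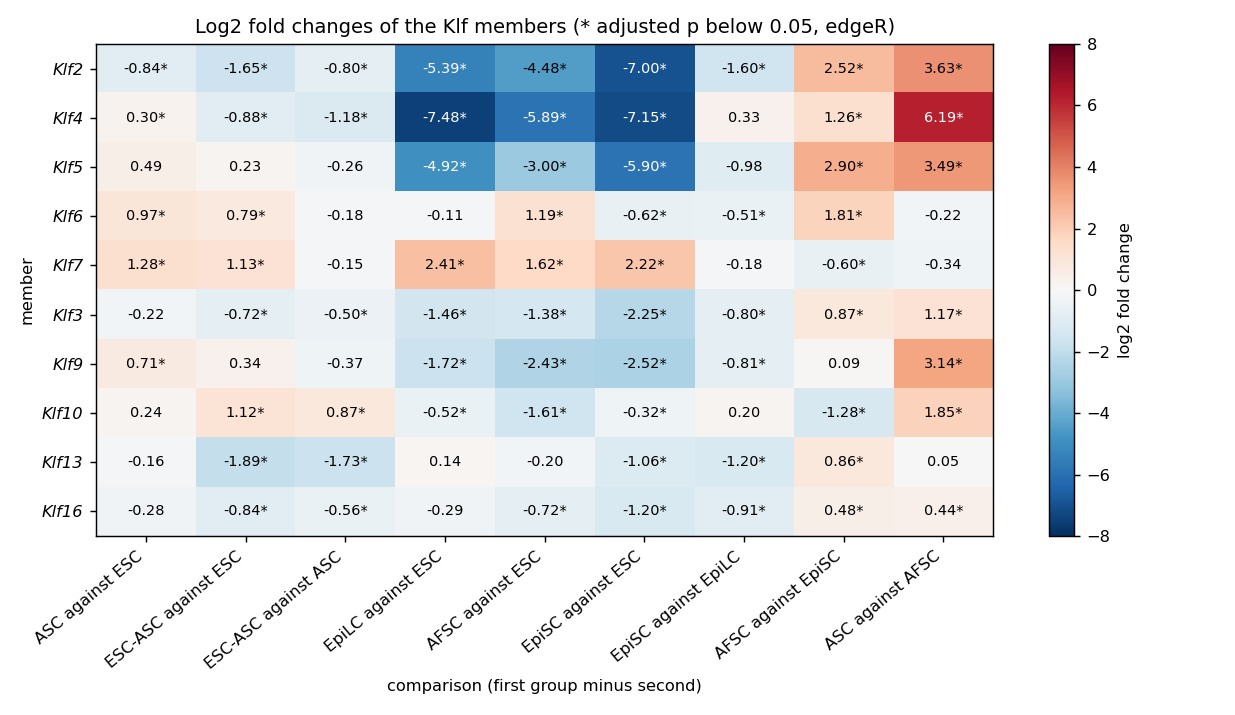
Log2 fold changes of the 10 members (rows) in the 9 comparisons (columns, first group minus second), with an asterisk where the adjusted p by edgeR was below 0.05. *Klf2*, *Klf4* and *Klf5* fell by 2.996 to 7.48 on the log2 scale from ESCs to EpiLCs, AFSCs and EpiSCs, while *Klf7* was higher than in ESCs in all 5 comparisons with them.

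The summed level of the 10 members was 3872 ± 153 normalized read counts per kb in ESCs (SD, n = 3), 3588 ± 405 in ASCs and 2414 ± 104 in ESC-ASCs. It was 670 ± 29.9 in EpiLCs, 677 ± 20.7 in AFSCs and 440 ± 40.3 in EpiSCs. ESC and ASC samples overlapped, and every sample of these 2 groups was above the ESC-ASC samples, which were above all primed samples. *Klf2*, *Klf4* and *Klf5* made up 77.6% ± 3.88 of the sum in ESCs, 69.7% ± 4.06 in ASCs and 58.8% ± 1.22 in ESC-ASCs. Their share was 20.3% ± 0.442 in AFSCs, 8.88% ± 0.847 in EpiLCs and 5.78% ± 0.364 in EpiSCs, and without division by exonic length it ranged from 63.9% in ESCs to 2.98% in EpiSCs. The share of the Sin3A-recruiting members was 18.8% ± 3.58 in ESCs and 75.6% ± 1.73 in EpiSCs, although each of the 4 was itself lower in EpiSCs. The sum of the other 7 members changed less, from 870 ± 177 in ESCs to 415 ± 37.5 in EpiSCs.

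The leading member also changed with the group. *Klf2* held 49.4% of the summed level in ESCs, and in ASCs it shared the lead with *Klf4*, at 29.5% and 27.6%, with *Klf4* ahead in ASC replicate 1. In EpiLCs *Klf16* led with 29.3%, in AFSCs *Klf6* with 25.1%, and in EpiSCs *Klf10* with 31.8%. The AFSC lead was not shared by all samples, since in AFSC replicate 2 *Klf16* held 24.4% and *Klf6* 22.4%. Some leads depended on the division by exonic length. Without it *Klf4* led in ASCs (29.7%, with *Klf2* at 19.4%) and in ESC-ASCs (19.5%), *Klf13* led in EpiLCs (31.1%, with *Klf16* at 18.7%), and *Klf6* and *Klf13* were near each other in AFSCs (26.3% and 25.3%). The bars by sample show these shares together with the totals.

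**Figure D3:**
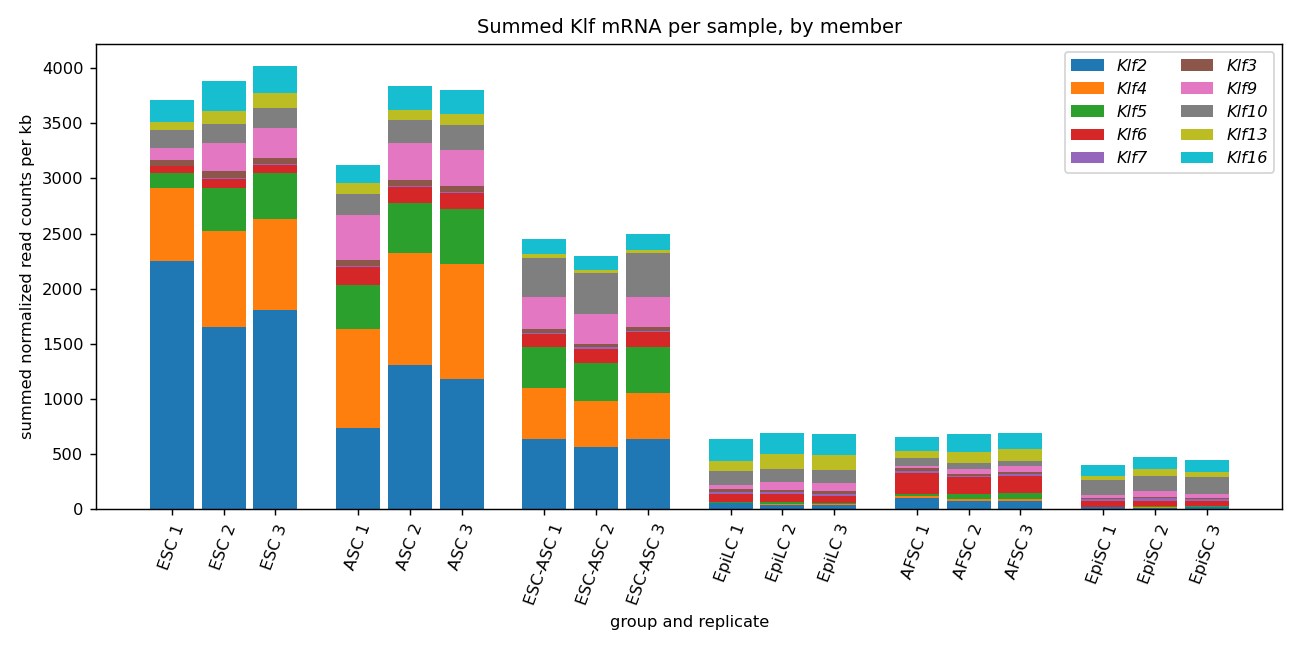
Summed level of the 10 members in each sample, as normalized read counts per kb, with 1 color per member. The ESC samples reach 3714 to 4019 and the EpiSC samples 397 to 477, and *Klf2*, *Klf4* and *Klf5* fill most of the bars in ESCs, ASCs and ESC-ASCs only.

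How the 2 cultures of naive character differed was asked by setting ASCs against ESCs. *Klf6*, *Klf7*, *Klf9* and *Klf4* were higher in ASCs and *Klf2* was lower, which makes 5 of the 10 members called, close to the 50.3% of all genes tested (26.4% higher and 23.9% lower). Only *Klf7* passed with more than a 2-fold change, compared with 25.8% of genes. The median log2 fold change over the members was 0.27, and over all genes 0.02. Scaling by library size alone moved the median of all genes by 0.202 on the log2 scale in this comparison, by -0.143 in ESC-ASCs against ASCs and by 0.125 in AFSCs against ESCs.

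Conversion of ESCs in ABCL was addressed by ESC-ASCs against ESCs. *Klf6*, *Klf7* and *Klf10* were higher and *Klf2*, *Klf3*, *Klf4*, *Klf13* and *Klf16* lower, so that 8 of the 10 members were called, with 60.1% of all genes called (30.6% higher and 29.6% lower). The 4 members beyond 2-fold were *Klf7*, *Klf10*, *Klf2* and *Klf13*, with 36.4% of all genes. Between the 2 routes into ABCL, ESC-ASCs against ASCs, 6 members were called (50.7% of all genes, 23% higher and 27.7% lower), of which *Klf10* was higher and *Klf2*, *Klf3*, *Klf4*, *Klf13* and *Klf16* were lower in ESC-ASCs. The changes in *Klf4* and *Klf13* went beyond 2-fold, as did those of 24.5% of all genes. ESC-ASC is a common arm of these comparisons and was sequenced more deeply, and the part of depth in these results was not tested. The paper describes the conversion of 2 ESC lines. Which line gave the ESC-ASC samples, and whether the ESC samples are its parent, is not given in the sources used here. Differences between lines therefore cannot be told apart from conversion or route.

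The step out of the primed AFSC culture was addressed by ASCs against AFSCs. *Klf2*, *Klf3*, *Klf4*, *Klf5*, *Klf9*, *Klf10* and *Klf16* were higher in ASCs, and no member was called lower, so that 7 members were called against 64% of all genes. Of all genes 32.8% were called higher and 31.2% lower. The called changes ran from 0.44 ± 0.15 for *Klf16* (adjusted p = 0.0137, edgeR) to 6.19 ± 0.17 for *Klf4* (adjusted p = 2.14e-15). The call of *Klf16* was lost without ASC replicate 3 or AFSC replicate 1 (adjusted p 0.0650 and 0.0652). *Klf6* (-0.22 ± 0.14), *Klf7* (-0.34 ± 0.18) and *Klf13* (0.05 ± 0.21) did not pass. The median over the members was 1.51 on the log2 scale and over all genes 0.02.

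Priming was addressed by setting each primed group against ESCs, comparisons that share the ESC samples. In EpiLCs 6 members were called lower (*Klf2*, *Klf3*, *Klf4*, *Klf5*, *Klf9*, *Klf10*) and *Klf7* higher, with 55.3% of all genes called, 26.6% lower and 28.7% higher. In AFSCs 9 were called (60.5% of all genes), with *Klf2*, *Klf3*, *Klf4*, *Klf5*, *Klf9*, *Klf10* and *Klf16* lower (30.8%) and *Klf6* and *Klf7* higher (29.7%). In EpiSCs all 10 were called (61.2% of all genes), 9 lower (32%) and *Klf7* higher (29.2%). The median log2 fold changes of the members were -0.99, -1.49 and -1.73 in EpiLCs, AFSCs and EpiSCs, and those of all genes between -0.04 and 0.06.

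Among the primed groups, EpiSCs were lower than EpiLCs in *Klf2*, *Klf3*, *Klf6*, *Klf9*, *Klf13* and *Klf16*, 6 members where 48.6% of all genes were called (21.5% higher and 27% lower), and no member was called higher. The call of *Klf9* (-0.81 ± 0.32, adjusted p = 0.0445, edgeR) rested on groups that overlapped and was lost when any 1 of 10 of the 18 libraries was left out (adjusted p 0.0517 to 0.167): any ASC or ESC-ASC sample, EpiLC 2 or 3, or EpiSC 1 or 3. AFSCs against EpiSCs gave 9 members called, compared with 39.4% of all genes (21.6% higher and 17.8% lower). *Klf2* (2.52 ± 0.24, adjusted p = 9.34e-08, edgeR), *Klf3*, *Klf4*, *Klf5*, *Klf6*, *Klf13* and *Klf16* were higher in AFSCs and *Klf7* and *Klf10* lower. The calls of *Klf7* (lost without EpiSC replicate 2, adjusted p = 0.0655) and *Klf16* (lost without AFSC replicate 2 or EpiSC replicate 1, adjusted p 0.0808 and 0.0816) in this comparison depended on single libraries.

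**Figure D4:**
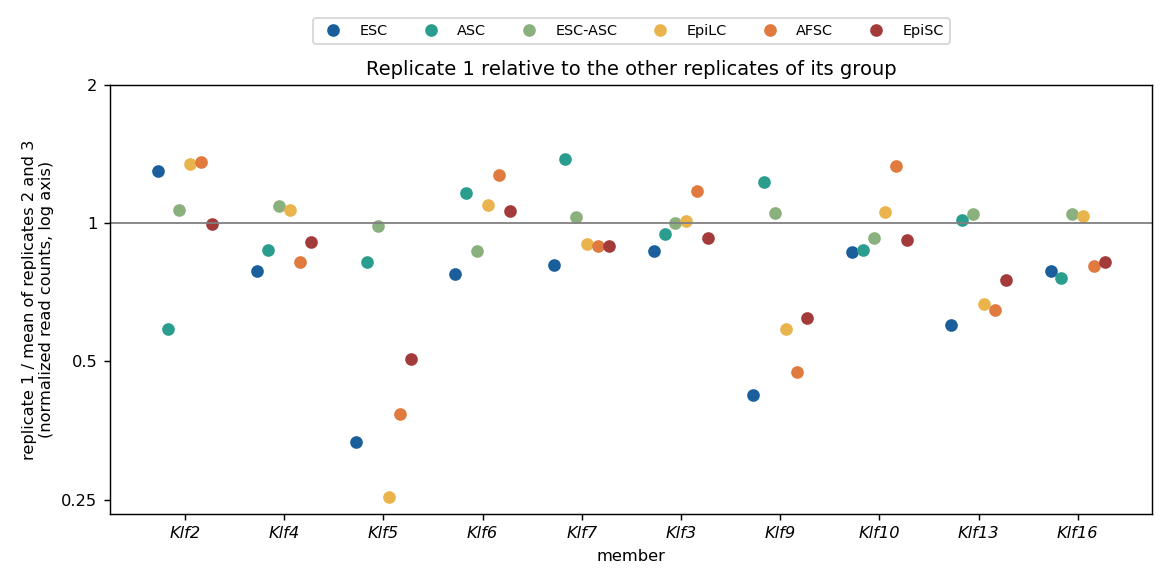
Level of each member in replicate 1 divided by the mean of replicates 2 and 3 of the same group, on a log axis, with 1 color per group. *Klf5* lies between 0.253 and 0.507 and *Klf9* between 0.424 and 0.623 in ESCs, EpiLCs, AFSCs and EpiSCs, and ESC-ASCs stay between 0.873 and 1.09 for all members.

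*Klf5*, *Klf9* and *Klf13* were lowest in replicate 1 in ESCs, EpiLCs, AFSCs and EpiSCs, as were 9.98% of the 16901 genes. In these 4 groups 10.5% of genes were highest in replicate 1, none of them a member. ASCs, whose replicate 1 also stood apart, are not among the 4. There the ratios were 0.823 for *Klf5*, 1.23 for *Klf9* and 1.02 for *Klf13*. The share of members in these 4 groups therefore depends on which groups were taken and is no test. In EpiSCs the *Klf5* ratio of 0.507 came from the high replicate 2. *Klf2* was at 1.30, 1.35 and 1.36 of the other samples in ESCs, EpiLCs and AFSCs and at 0.999 in EpiSCs. Mitochondrial reads were also highest in replicate 1 of these 4 groups and of ASCs, and their part in the deviation was not tested. When only replicates 2 and 3 were used, a choice made after seeing the data, 7 members were called between ASCs and ESCs (52.2% of all genes) and 10 between EpiSCs and ESCs (68.8%), and no call made with all samples was lost in any of the 9 comparisons.

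The 7 other Klf genes and the Sp genes, which encode the most closely related zinc finger proteins, were measured beside the members. Of the other Klf genes 5 were tested, and *Klf1* and *Klf14* were too low. Between ASCs and ESCs all 5 were called, *Klf11* (1.2004 ± 0.18, adjusted p = 2.15e-05, edgeR), *Klf12* (2.18 ± 0.37, adjusted p = 8.72e-05) and *Klf17* higher and *Klf8* and *Klf15* lower, with 50.3% of all genes called. *Klf17* had 0 or 1 raw counts per sample in ESCs and 3 to 12 in ASCs, and *Klf12* 1 to 11 and 26 to 41, so both rested on few reads. In EpiSCs *Klf8* (-3.94 ± 0.20, adjusted p = 3.72e-12, edgeR), *Klf15* (-2.33 ± 0.23, adjusted p = 4.96e-08) and *Klf11* were lower than in ESCs.

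Of the Sp genes 8 of 9 were tested. In ASCs 4 of the 8 were lower than in ESCs (23.9% of all genes) and none was called higher (26.4%), with *Sp5*, a target of Wnt signaling, changed most (-2.36 ± 0.19, adjusted p = 1.27e-08, edgeR). *Sp5* measured 522 ± 20.7 normalized read counts per kb in ESCs (SD, n = 3), 103 ± 25.3 in ASCs, 15.5 ± 2.52 in ESC-ASCs, 0.860 ± 0.686 in EpiLCs, while EpiSCs held 190.0 ± 5.42 and AFSCs 89.0 ± 23.0. *Sp8*, which acts in brain and limb patterning, was higher in EpiSCs than in ESCs (5.99 ± 0.36, adjusted p = 3.92e-11, edgeR), as was *Sp4*, and *Sp2*, *Sp3*, *Sp5* and *Sp6* were lower, so that 6 of the 8 were called, with 61.2% of all genes.

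The 11 other genes of the naive network were within 2-fold of ESCs in ASCs, and lower in EpiSCs. Between ASCs and ESCs 7 were called (50.3% of all genes), 2 higher and 5 lower, and 0 went beyond 2-fold (25.8%). All 11 were lower in EpiSCs than in ESCs (32% of all genes), 10 of them beyond 2-fold (22%). All 11 were higher in ASCs than in AFSCs (32.8%), 10 of them beyond 2-fold (22.7%). In ESC-ASCs all 11 were called against ESCs (60.1%), 2 higher and 9 lower, and 9 went beyond 2-fold (36.4%).

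**Figure D5:**
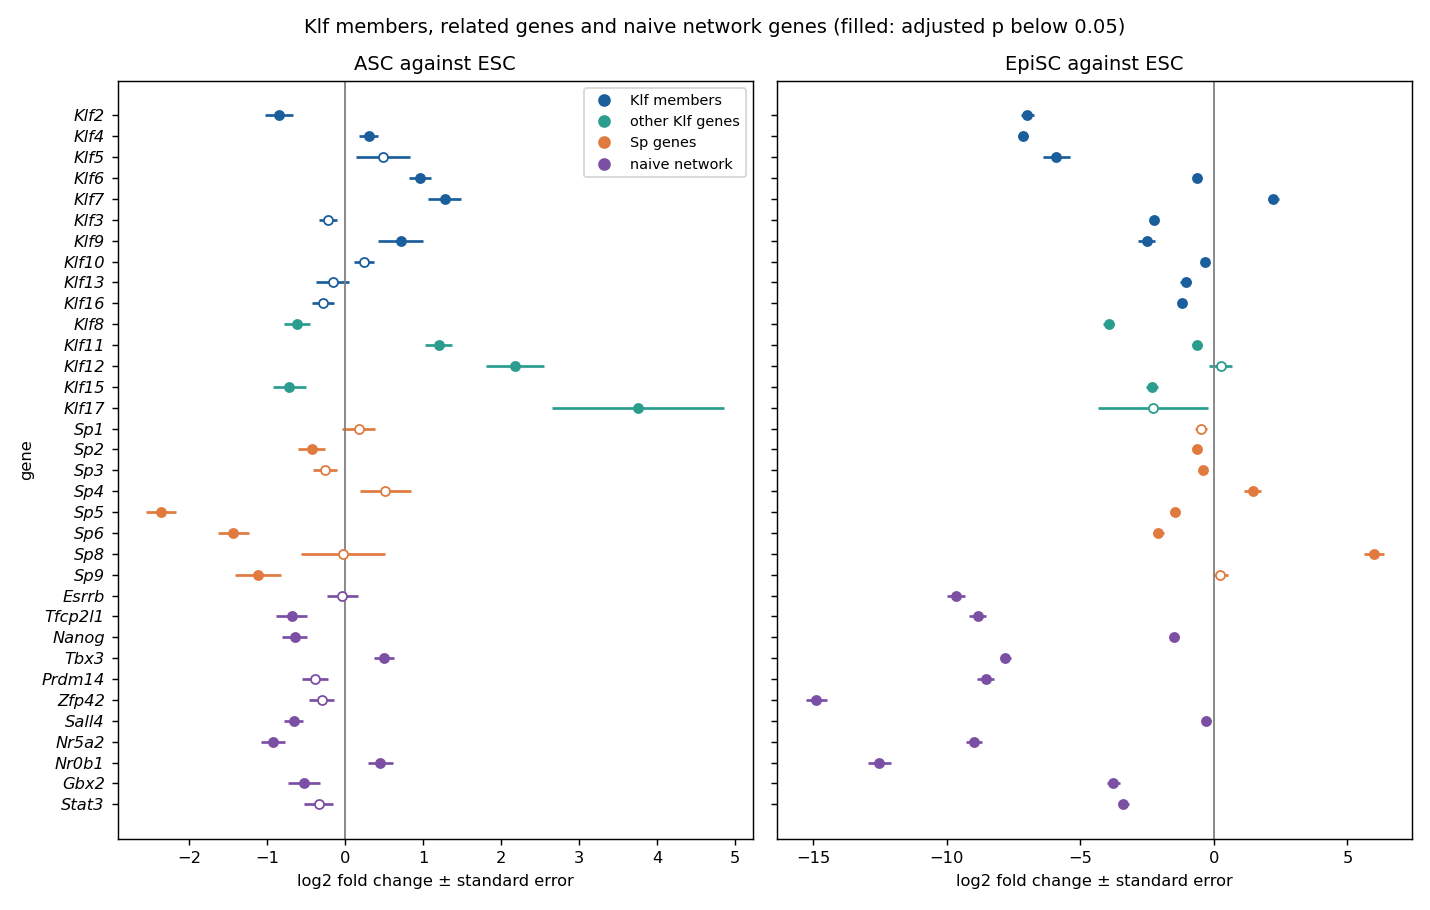
Log2 fold changes with standard errors of the members, the other Klf genes, the Sp genes and other naive network genes in ASCs against ESCs (left) and EpiSCs against ESCs (right), filled where the adjusted p by edgeR was below 0.05 and on different axis ranges. No naive network gene lies beyond 1 on the left, and all 11 are below 0 on the right, where *Zfp42*, *Nr0b1* and *Klf17* had 0 counts in EpiSCs and their size depends on the fit.

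Genes whose levels ran most like those of *Klf2*, *Klf4* and *Klf5* were found by the root mean square difference of their centered log2 levels over the 18 samples. For *Klf2* they were *Irak3* (0.52), *Rab11fip5* (0.61) and *Mapt* (0.61), for *Klf4* *Serpina3h* (0.72), *Gm28040* (0.73) and *Tfcp2l1* (0.73), and for *Klf5* *Cobl* (0.72), *Itgb3* (0.75) and *Oas2* (0.90). The median over all genes was 2.65, 3.44 and 2.83. Among the members *Klf13* and *Klf16* were the closest pair (0.54) and *Klf4* and *Klf7* the most distant (4.07). The levels were centered but not scaled, so these differences depend on how widely a gene varies as well as on its pattern. Genes that vary little lie close to each other whatever their order of groups.

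Markers of other cell types that express Klf genes were not evenly spread over the groups. The 7 fibroblast markers, which feeder cells would bring, summed to 41.8 to 101 normalized read counts per kb in ESCs, 75.3 to 117 in ASCs and 50.8 to 60.7 in ESC-ASCs. The sums were 111 to 126 in EpiLCs, 31.6 to 51.9 in AFSCs and 17.05 to 19.9 in EpiSCs. *Dcn* and *Lum* were at 0 in EpiSCs and *Col3a1*, *Lum* and *Postn* at 0 in ESC-ASCs. These genes also went both ways, and *Thy1* made up most of the sum in ESC-ASCs (53.4 ± 4.84). In EpiLCs *Dcn* (64.6 ± 13.5) and *Thy1* (43.9 ± 1.58) did. Of the 5 fibroblast markers tested, 4 were called lower in ESC-ASCs than in ESCs (29.6% of all genes) and *Thy1* higher (30.6%). The 5 endoderm markers summed to 7.89 to 9.71 in ESCs, 13.8 to 23.0 in ASCs, 17.1 to 20.8 in ESC-ASCs, 13.1 to 15.8 in EpiLCs, and were higher in EpiSCs (211 to 226) and AFSCs (86.4 to 107), with all 5 detected in every group. *Foxa2* made up most of the sum in AFSCs (90.5 ± 8.48) and EpiSCs (153 ± 8.57), more than any member in EpiSCs, and *Gata4* was lower in both than in ESCs. Of the 4 endoderm markers tested, 2 were called higher (29.7% of all genes) and 1 lower (30.8%) in AFSCs than in ESCs. In EpiSCs 3 were called higher (29.2%) and 1 lower (32%). Some counts were low, with *Sox17* at 0 to 4 raw counts per sample in ESCs and *Gata4* at 0 to 2 in AFSCs. The 5 trophoblast markers summed to 89.6 to 131 in ESCs, 109 to 148 in ASCs, 151 to 163 in ESC-ASCs and at most 32.8 in the primed groups, with *Elf5* at 0 in ESC-ASCs. The genes of this list went both ways, with *Cdx2* at 94.9 ± 21.0 in ESCs and 0.368 ± 0.464 in ESC-ASCs and *Ascl2* at 14.2 ± 4.69 and 140.8 ± 5.36. *Ascl2* made up most of the ESC-ASC sum, with *Krt7* at 13.8 ± 1.92 and *Hand1* at 0.753 ± 0.444. That sum was above the levels of *Klf3*, *Klf6*, *Klf7*, *Klf13* and *Klf16* in ESC-ASCs, but it rested largely on 1 gene. The part of all these markers in the differences of the members was not tested.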

How the data were processed

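RNA-seq of 18 samples in 6 groups of 3 was used. The authors deposited unnormalized counts, the number of read pairs assigned to each gene. Per the labels, the file headers and the study's methods, the authors mapped paired reads of polyA libraries from a directional kit to GRCm38 (mm10) with TopHat2 and counted fragments on Ensembl 86 exons with featureCounts 1.5.0-p1, with a minimum overlap of 10 bp. Counting ignored strand and kept fragments that mapped to several places or overlapped several genes at each of them. The samples were grouped by their labels, which call AFSC what some deposited tables name ASC, and the alignment names in the ESC-ASC headers differ from the group name. Symbols were matched for 35514 of 35773 gene identifiers, with no value column left unmapped.

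Counts were tested with edgeR 4.0.16 (robust quasi-likelihood fit, TMM scaling, a minimum of 10 counts in 3 or more samples, which left 16901 genes, 1 coefficient per group, no block) and Benjamini-Hochberg adjustment within each of 15 comparisons, of which 9 were planned as main ones. DESeq2 1.42.0 gave the size factors for levels and an alternative test. R 4.3.3 and Python 3.11.15 were used. Likeness used log2 levels with a pseudocount of 0.1. All 10 members are named in every comparison, and other genes by lists. The members and lists were chosen with earlier results of these data known. No 2 replicates were identical (chi-square per degree of freedom 1.65 to 100.1 over 18 pairs). Same-numbered samples of different groups did not deviate together throughout: of 45 pairs 21 had a correlation above 0.1 (mean 0.0934, range -0.235 to 0.519). Of 90 pairs with different numbers 22 did (mean -0.0441, range -0.434 to 0.363). Deviations were taken from the mean of each group, which ties the 2 means to each other with opposite signs. The second mean is therefore no independent baseline for the first. No sample was left out. Totals of 4961934 to 18071600 counts limit the precision of low counts.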

Additional observations from a re-analysis of the deposited data

How the results depend on the processing

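Of the 90 member results, 90 kept their call and direction with DESeq2 size factors, 89 with the DESeq2 Wald test, 85 with library size alone, 86 with no filter on low counts, 87 with only the 2 groups compared and 79 with replicates 2 and 3 only, an alternative chosen after seeing the data. The replicate block changed no call: between ASCs and ESCs 5 members were called with the block and 5 without it, and the replicate number stands for no stated pairing. The number of members called between ASCs and ESCs was 3 with no filter on low counts and 3 to 5 when 1 library was left out. In the main fit it was 5, with 50.3% of all genes called. The share of all genes called was not computed without the filter or with a library left out. The fall from 5 to 3 therefore cannot be read as particular to the members. With a call that also required a 2-fold change, the number was 1 between ASCs and ESCs (25.8% of all genes). It was 4 between ESC-ASCs and ESCs (36.4%) and 2 between ESC-ASCs and ASCs (24.5%). Between AFSCs and EpiSCs it was 5 (20.8%) and between EpiSCs and EpiLCs 2 (28.6%). Fewer genes pass 2 conditions than 1.

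Directions that reversed were of differences not called with all samples, and the cause was not tested. *Klf13* between ASCs and ESCs was 0.041 with library size alone, and -0.37 to 0.00038 when 1 library was left out (above 0 without ESC replicate 3). *Klf5* between ESC-ASCs and ESCs was -0.086 with replicates 2 and 3 only and -0.12 (without ESC replicate 1) to 0.49. *Klf7* between ESC-ASCs and ASCs ranged from -0.26 to 0.025 (without ASC replicate 1). *Klf13* between ASCs and AFSCs was -0.11 with replicates 2 and 3 only and -0.13 (without AFSC replicate 1) to 0.18, and between EpiLCs and ESCs -0.073 (without ESC replicate 1) to 0.29. *Klf9* between AFSCs and EpiSCs ranged from -0.099 (without EpiSC replicate 1) to 0.36, and was -0.035 and -0.094 without AFSC replicate 2 or 3.

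Depth limits the low members: *Klf5* had 4 to 17 raw counts per sample in EpiSCs and *Klf4* 11 to 16 in EpiLCs.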
